A study of Mus musculus with 2 samples.

Results

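The miR-148/152 family consists of the 3 microRNA (miRNA) genes Mir148a, Mir148b and Mir152, which lie at 3 separate loci of the mouse genome and share the seed of their main mature miRNA. The members were chosen by name, not by their level, and all 3 were found among the 1973 gene identifiers of the count tables. Small RNA of the thymus was sequenced at postnatal day 0 from pup 2 (replicate 1) and pup 3 (replicate 2) of 1 litter, in the strain B6NCrl, with both lobes of a pup making 1 library. The labels name no treatment or altered allele and do not record sex. Both libraries form a single group, so no contrast between conditions exists, and the data give the level of each member and its spread between 2 littermates. A single donor identifier is recorded for both pups, and that they are separate animals rests on their pup numbers.

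A miRNA is cut from a hairpin transcript, and 1 arm of the hairpin is loaded into an Argonaute protein, where the seed near its 5′ end pairs with target mRNAs. Members of a seed family can therefore act on many of the same targets. The miR-148/152 family is known for repressing the DNA methyltransferase Dnmt1, and miR-148a is also known for repressing the pro-apoptotic gene Bcl2l11 (Bim) in lymphocytes. No mRNA was measured here.

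The 3p arms of the members are shown because their common seed, bases 2 to 8 in capitals, defines the family. Sequences are from RefSeq (GRCm38.p6), written 5′ to 3′.

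miR-148a-3p: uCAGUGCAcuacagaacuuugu

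miR-148b-3p: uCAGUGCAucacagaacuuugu

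miR-152-3p: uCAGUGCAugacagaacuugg

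Among the 1738 mature mouse miRNAs of the RefSeq table, these 3 were the only ones with the seed CAGUGCA. Counted from the 5′ end, miR-148a-3p and miR-148b-3p differed at 2 of 22 bases, C9U and U10C with miR-148a-3p given first. The differences of miR-148a-3p from miR-152-3p were C9U, U10G and U20G over 21 bases, and those of miR-148b-3p from miR-152-3p were C10G and U20G. The first 8 bases were thus identical in all 3, and the differences lay directly after the seed and near the 3′ end.

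The 5p arms, again with bases 2 to 8 in capitals, are shown because there the family divides.

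miR-148a-5p: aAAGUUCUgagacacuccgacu

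miR-148b-5p: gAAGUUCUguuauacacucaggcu

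miR-152-5p: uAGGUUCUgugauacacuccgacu

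The 5p arms of Mir148a and Mir148b shared the seed AAGUUCU, and that of Mir152 was AGGUUCU. No other mature miRNA of the table had either of these seeds. The counts are per gene, so reads of the 3p and the 5p arm cannot be told apart.

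The hairpins are given in full because they are the counted genes, with both mature arms in capitals.

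Mir148a: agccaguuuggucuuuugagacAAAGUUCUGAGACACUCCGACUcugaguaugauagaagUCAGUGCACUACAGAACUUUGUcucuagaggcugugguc

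Mir148b: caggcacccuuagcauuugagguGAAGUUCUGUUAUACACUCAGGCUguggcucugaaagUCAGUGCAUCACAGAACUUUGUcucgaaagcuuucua

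Mir152: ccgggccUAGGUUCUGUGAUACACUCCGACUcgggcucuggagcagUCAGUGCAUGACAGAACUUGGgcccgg

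The annotated hairpin of Mir152 was the shortest at 73 bases, against 99 for Mir148a and 97 for Mir148b, and its GC content was 61.6%, against 45.5% and 45.4%. RNAfold gave minimum free energies of -41.0 kcal/mol for Mir148a, -30.9 for Mir148b and -43.5 for Mir152. In the predicted folds, 19 of 22 bases of miR-148a-3p, 17 of 22 of miR-148b-3p and 19 of 21 of miR-152-3p were paired. Mir148b had the weakest predicted fold. The annotated hairpins differ in length and GC content, and a relation of fold energy to level was not tested.

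**Figure D1:**
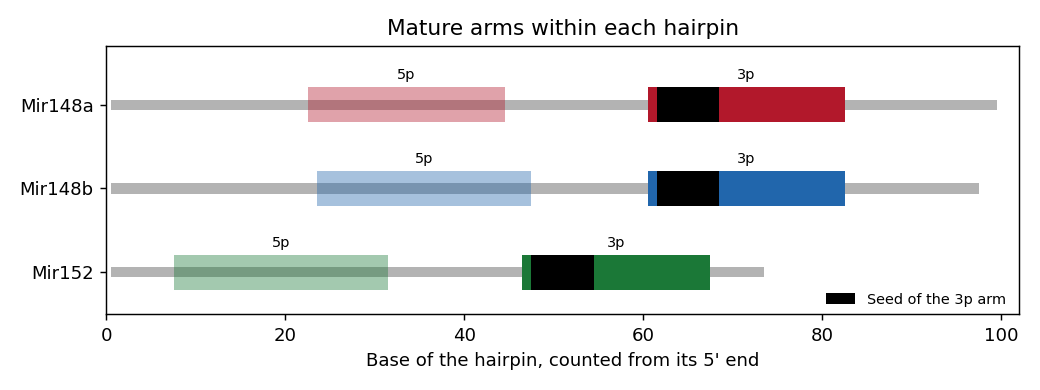
Position of the 5p arm (pale) and the 3p arm (dark) in each annotated hairpin, in bases from the 5′ end of the hairpin, with the seed of the 3p arm in black. The 3p arm spans bases 61 to 82 in Mir148a and Mir148b and bases 47 to 67 in the shorter hairpin of Mir152.

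Mir148a (ENSMUSG00000065505.1) lies on chromosome 6 from 51269812 to 51269910 on the minus strand (GRCm38, mm10) and overlaps no other annotated gene. Its nearest protein-coding gene is Nfe2l3 at a distance of 163 kb. Mir148b (ENSMUSG00000065560.1) lies on chromosome 15 from 103285125 to 103285221 on the plus strand, in intron 1 of Copz1. Mir152 (ENSMUSG00000065515.1) lies on chromosome 11 from 96850393 to 96850465 on the plus strand, in intron 1 of Copz2. Copz1 and Copz2 are paralogs that encode the zeta subunits of the coatomer coat of transport vesicles. Both miRNAs lie on the strand of their host and within its first intron in every annotated host transcript that spans them. Host transcripts are not counted in small RNA data.

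The loci of the hosted members lie within 1000 kb of a Hox cluster, the homeobox genes that pattern the body axis. The nearest Hox gene is Hoxc4 at 248 kb from Mir148b and Hoxb1 at 482 kb from Mir152. None of the members is part of a miRNA cluster, as the nearest other counted miRNA gene was 352 kb away from Mir148a, 65.2 kb from Mir148b and 213 kb from Mir152. These neighbours had 0 counts in both libraries for Mir148a and Mir148b, and 3 and 1 counts for Mir152. Of the 294 miRNA genes that reached 10 counts in each library (called detected here), 133 (45.2%) had no other counted miRNA gene within 10 kb, and 130 (44.2%) lay within a protein-coding gene on the same strand.

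Reads that mapped to several places made up 56.3% of replicate 1 and 57.5% of replicate 2 and were not assigned to genes by the authors. The longest run of bases that a mature arm of the family shared with any of the 1004 other hairpins of the table, on either strand, was 12, between miR-148a-3p and miR-148b-3p. None of the 6 mature arms had an exact match in an annotated transcript of any other gene among 141767 GENCODE transcripts, on either strand. Places in the genome outside annotated transcripts were not searched.

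The tables assigned 2734133 counts in replicate 1 and 1289151 in replicate 2 to the strand of a miRNA gene. Levels are counts per 1000000 of these (CPM). They were not divided by length, since mature miRNAs are of nearly equal length, and errors are SD over 2 libraries. A count of 0 allows a level of up to 1.10 CPM in replicate 1 and 2.33 CPM in replicate 2 (3 counts), and intervals cover counting error only, as reads without molecular identifiers are not independent molecules. Thymocyte miRNAs (Mir181a-1 and its 3 paralogs) held 4.64% ± 0.326 of the counts and epithelial miRNAs 4.01% ± 0.0696, whereas the 5 counted neural genes, Mir9-2, Mir9-3 and the Mir124a genes, had at most 1 count in either library, though the Mir124a and Mir9 genes share mature sequence among their own copies. The same holds for the Mir181a and the Mir181b genes, so the thymocyte share can be too low.

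All 3 members were detected in both pups, and Mir148a was the most abundant. Mir148a had 4378 counts in replicate 1 and 2124 in replicate 2, or 1601 and 1648 CPM, with a mean of 1624 ± 32.8 (SD, n = 2). Mir148b had 1418 and 705 counts, or 519 and 547 CPM, with a mean of 533 ± 20.0. Mir152 had 531 and 296 counts, or 194 and 230 CPM, with a mean of 212 ± 25.0. The members did not overlap in level, and the order Mir148a, Mir148b, Mir152 held in both pups. Every level was slightly higher in CPM in replicate 2. Scaled by total assigned counts, as CPM is, the log2 ratio of replicate 2 over replicate 1 was 0.04 for Mir148a, 0.08 for Mir148b and 0.24 for Mir152. None of these passed the exact binomial test between the libraries after adjustment.

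The gaps between the members were much larger than the spread between the pups. The ratio of Mir148a to Mir148b was 3.09 in replicate 1 (exact 95% interval 2.91 to 3.28) and 3.01 in replicate 2 (2.77 to 3.29), a mean of 3.05 ± 0.0528. Mir148a exceeded Mir152 by 8.24 times (7.53 to 9.04) in replicate 1 and 7.18 times (6.35 to 8.13) in replicate 2, a mean of 7.71 ± 0.756. For the Copz-hosted pair, the ratio of Mir148b to Mir152 was 2.67 (2.42 to 2.96) and 2.38 (2.08 to 2.74), a mean of 2.53 ± 0.204. None of these intervals reached 1, and for each pair the intervals of both libraries overlapped. With 2 pairs of values, an exact permutation test over the pups cannot go below p = 0.5, so none was run. The ratios compare counted reads, and the efficiency with which each miRNA entered the library was not measured.

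Together the members took 0.231% of the counts in replicate 1 (95% Wilson interval 0.226 to 0.237) and 0.242% in replicate 2 (0.234 to 0.251), a mean of 0.237% ± 0.00778. Of the counts of the family, Mir148a supplied 69.2% (68.0 to 70.3) in replicate 1 and 68.0% (66.3 to 69.6) in replicate 2. Mir148b supplied 22.4% (21.4 to 23.5) and 22.6% (21.1 to 24.1), and Mir152 supplied 8.39% (7.73 to 9.10) and 9.47% (8.49 to 10.5). Mir148a, the gene outside any host, thus held the larger part of the counts in both pups, and the make-up of the family overlapped between the pups within counting error. No member had a count on the strand opposite to its gene in either library, as was the case for 272 of the 294 detected genes.

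**Figure D2:**
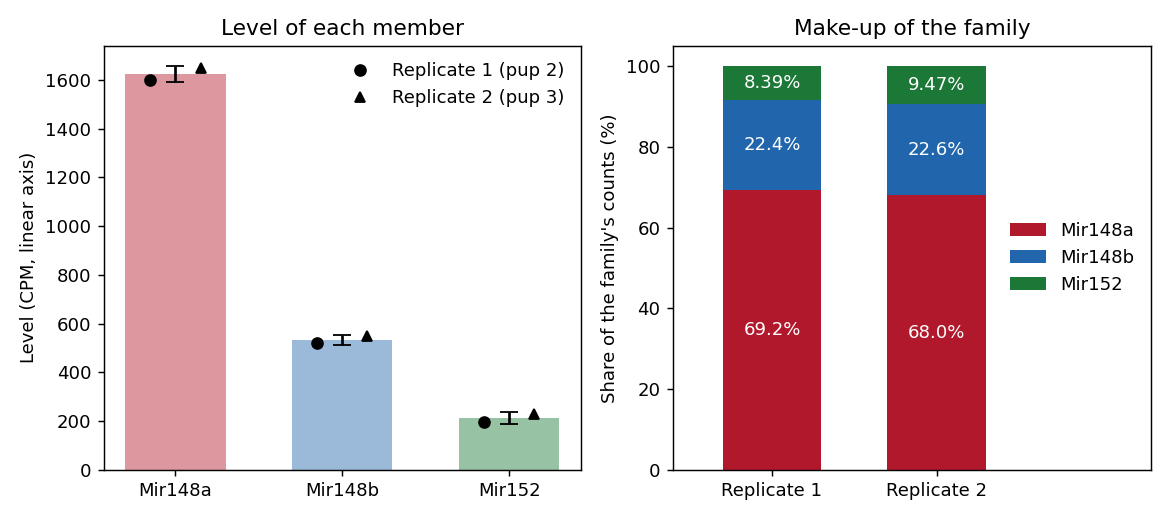
Left, level of each member in CPM on a linear axis, with bars for the mean, error bars for the SD over 2 libraries, and points for each pup. Right, share of the family's counts by member in each library; Mir148a makes up 69.2% and 68.0%, and Mir152 8.39% and 9.47%.

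Among the 294 detected genes, Mir148a ranked 82nd by mean level, Mir148b 120th and Mir152 156th. Mir152 lay close to the median level of the detected genes, which was 239 CPM, and the other members lay above it. The ranks were similar in the pups, at 82 and 83 for Mir148a, 121 and 118 for Mir148b, and 159 and 152 for Mir152. The family thus spanned the middle of the range of thymic miRNAs, far below the leading genes.

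The genes nearest to each member in level in both libraries, by the larger of the 2 absolute differences in log2 CPM, were of varied kinds. With only 2 libraries, such likeness is one of level alone. Nearest to Mir148a were Mir708 (1505 CPM ± 26.0) and Mir183 (1465 ± 37.4), a miRNA known from sensory cells. Nearest to Mir148b were Mir1983 (531 ± 28.1) and Mir34c (531 ± 5.67), a miRNA of ciliated cells, and nearest to Mir152 were Mir330 (214 ± 34.4) and Mir187 (218 ± 29.0). The larger difference ran from 0.02 for Mir1983 to 0.15 for Mir183 on the log2 scale.

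**Figure D3:**
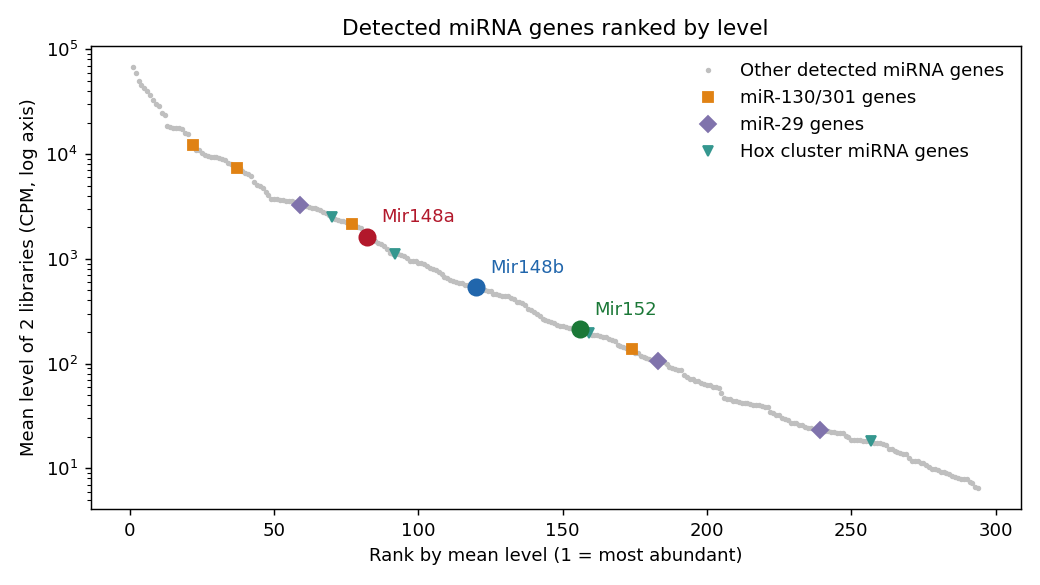
Mean level of the 294 detected genes in CPM (log axis) against their rank, with the family and 3 other groups of miRNA genes marked. Mir148a, Mir148b and Mir152 sit at ranks 82, 120 and 156, and Mir130b and Mir130a sit well above them.

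None of the members was called different between the littermates. After scaling by TMM (trimmed mean of M values), the log2 ratio of replicate 2 over replicate 1 was -0.03 for Mir148a (exact 95% interval -0.10 to 0.05), 0.01 for Mir148b (-0.12 to 0.14) and 0.18 for Mir152 (-0.03 to 0.38). By exact binomial tests with Benjamini-Hochberg adjustment over all 294 detected genes, the adjusted p was 0.668, 0.938 and 0.181, so 0 of the 3 members were called, and none passed at an unadjusted p under 0.05 (0.518, 0.890 and 0.0963). The same test called 43.5% of all detected genes, 20.1% higher and 23.5% lower in replicate 2, and 66.7% of the 156 genes at or above the level of Mir152. The split of 59 genes higher and 69 lower became 72 and 52 with total assigned counts in place of TMM. The median log2 ratio of the 3 members was 0.01, against -0.03 over all detected genes. The intervals allow a difference of at most 0.10 in either direction for Mir148a, the member with the most counts, and of up to 0.38 for Mir152. These tests set 1 library against 1 by counting error and compare the libraries, not conditions. A negative binomial test in edgeR called 1 of 294 genes, or 0.34%, and 0 of the members (unadjusted p = 0.938, 0.978 and 0.606, adjusted p = 1.0 for each). Its spread (a biological coefficient of variation of 0.154) came from the same 2 libraries that it compares, so few calls are built into it and it adds no support.

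Mir152 had the widest interval and the highest ratio of the family. Its absolute log2 ratio exceeded that of 44.2% of the detected genes, whereas those of Mir148a and Mir148b exceeded 6.80% and 2.72%. By the exact binomial test, which did not call Mir152, markers of several cell types stood higher in replicate 2. They were Mir122 of liver (log2 ratio 0.56) and 2 of 3 tested striated muscle genes (Mir208b, 3.01, and Mir499, 1.48). The striated muscle share was 0.0488% in replicate 1 and 0.0745% in replicate 2. The other tested gene of this list, Mir206, was not called (-0.08). Not tested, for too few counts, were Mir208a (6 counts in replicate 1 and 105 in replicate 2), Mir133b (19 and 4) and Mir1a-1 (0 and 0). Mir1a-2 of this list was not matched in the count tables. Multimapping reads were not assigned to genes, so the 0 counts of Mir1a-1 do not show that its mature miRNA was absent. Of the mesenchymal genes, 2 of 5 tested were higher (Mir143, 0.35, and Mir214, 0.51) and 0 lower, with shares of 4.57% and 6.06%, most of it from Mir143. Mir126a, the endothelial marker, held 2.80% and 3.73%. Epithelial genes went both ways, with 3 of 7 tested higher and 2 lower and shares of 3.96% and 4.06%. Lower in replicate 2 were 3 of 4 tested thymocyte genes (1 higher, shares 4.87% and 4.41%), 2 of 3 lymphocyte genes (1 higher, 0.892% and 0.863%), 1 of 2 myeloid genes (0.0940% and 0.0801%) and 1 of 2 erythroid genes (0.0231% and 0.0168%). Beside these counts, the exact binomial test called 43.5% of all detected genes, and 66.7% of those at or above the level of Mir152. Of the marker calls, the negative binomial test kept Mir208b and no other. The part of these cell types in the value of Mir152 was not tested. In whole tissue, fewer cells of a type and less RNA per cell cannot be told apart.

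**Figure D4:**
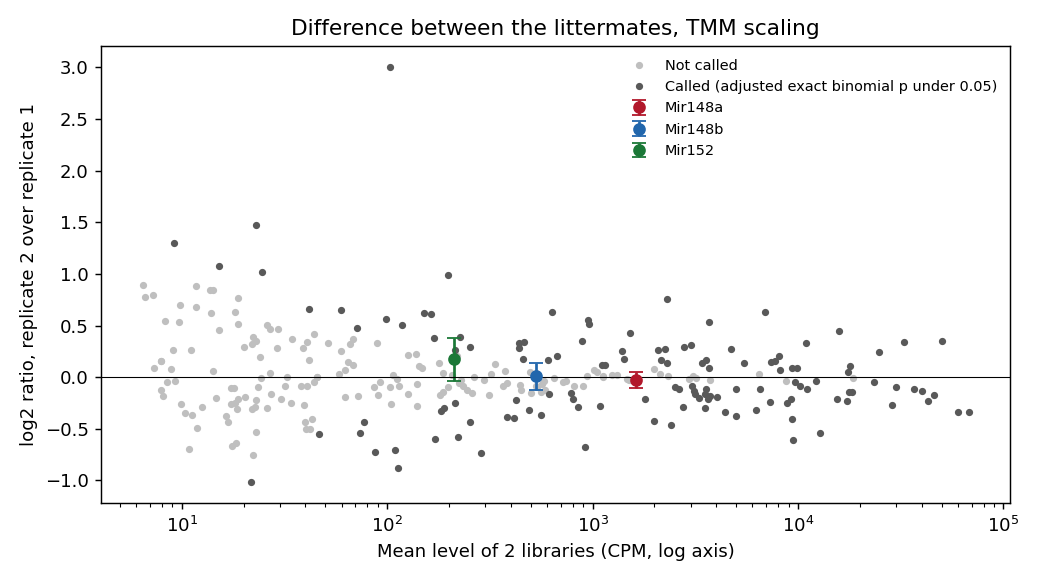
Log2 ratio of replicate 2 over replicate 1 with TMM scaling against the mean level in CPM (log axis) for the 294 detected genes, with genes called by the exact binomial test in dark grey. The members, with exact 95% intervals, lie at -0.03, 0.01 and 0.18, and each interval includes 0.

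The miR-130 and miR-301 genes form a related seed family, with the same hexamer shifted by 1 base. Bases 3 to 8 of the miR-148/152 members, AGUGCA, are bases 2 to 7 of miR-130a-3p and miR-301a-3p, shown here in capitals.

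miR-130a-3p: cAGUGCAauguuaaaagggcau

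miR-301a-3p: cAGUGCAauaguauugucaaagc

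The table held 7 mature miRNAs with this offset hexamer. Of their genes, Mir130c, Mir6341 and Mir6389 had 0 counts in both libraries, Mir721 was not matched in the count tables, and Mir130a, Mir130b and Mir301 were detected. Together with Mir301b, they had 21094 CPM in replicate 1 and 22565 in replicate 2, a total 9.12 (exact 95% interval 8.88 to 9.36) and 9.31 (8.97 to 9.66) times the summed level of miR-148/152, 2314 and 2424 CPM. Mir130b led with 12196 CPM ± 158, followed by Mir130a with 7365 ± 758, Mir301 with 2130 ± 105 and Mir301b with 138 ± 19.3. Mir130b took 55.9% ± 1.94 of the counts of its group, against 68.6% ± 0.868 for Mir148a in the miR-148/152 family. Between the pups, 1 of these 4 genes was called higher in replicate 2 (Mir130a, log2 ratio 0.14) and 1 lower (Mir130b, -0.04). The other 2 were not called, and the median was 0.09. Over all detected genes, the same exact binomial test called 43.5%, with a median of -0.03. With total assigned counts in place of TMM, the log2 ratio of Mir130b was 0.03 (adjusted exact binomial p = 0.118).

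The miR-29 family, which is known for repressing the DNA methyltransferases Dnmt3a and Dnmt3b, was compared as another family directed at this enzyme class. Its 4 genes held 1.55 (exact 95% interval 1.50 to 1.60) and 1.34 (1.28 to 1.41) times the counts of miR-148/152, and Mir29a at 3283 CPM ± 215 supplied 96.2% ± 0.139 of them. Mir148a alone exceeded Mir29c (105 ± 10.03 CPM), Mir29b-1 (23.0 ± 5.17) and Mir29b-2 (2.67 ± 1.71) in both pups. Mir29b-1 and Mir29b-2 encode the same mature miRNA, so their reads can be missing as multimapping. Of 3 tested genes, 0 were higher, 1 was lower in replicate 2 (Mir29a, log2 ratio -0.20) and 2 were not called, with a median of -0.26. The share called over all detected genes was 43.5%.

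The miRNA genes inside the Hox clusters, which lie on the same chromosomes as the family or, for Mir10b, in the HoxD cluster, held 3859 CPM ± 1.97 in sum. Mir10b had 2522 CPM ± 37.0 and Mir10a 1118 ± 42.6, so Mir148a lay between them. Mir196b had 198 ± 2.98 CPM, near Mir152, and Mir615 had 18.1 ± 0.315. Mir196a-1 and Mir196a-2, which share their mature sequence, had 1 and 0 counts and 11 and 5 counts. Of 4 tested genes, 0 were higher, 1 was lower (Mir10b, log2 ratio -0.10) and 3 were not called, with a median of -0.10. Again, 43.5% of all detected genes were called. The call of Mir10b was lost with total assigned counts (log2 ratio -0.03, adjusted exact binomial p = 0.470).

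The Mir17 to Mir92-1 cluster and Mir21a, miRNAs known from proliferating and activated lymphocytes, were far more abundant. Their 6 counted genes held 55.0 (exact 95% interval 53.6 to 56.4) and 49.0 (47.3 to 50.8) times the counts of miR-148/152. Mir18a of this cluster was not matched in the count tables. Mir19b-1 and Mir92-1 share their mature sequence with a copy at another locus. For both reasons, these ratios can be too low. Mir17 alone had 45956 CPM ± 2486. Of 6 tested genes, 1 was higher in replicate 2 (Mir92-1, log2 ratio 0.15) and 5 were lower, with a median of -0.22. Among the 5, Mir19b-1 (log2 ratio -0.55, adjusted exact binomial p = 0.0443) was not called with total assigned counts (adjusted p = 0.0877). With TMM, the exact binomial test called 43.5% of all detected genes, and 66.7% of those at or above the level of Mir152. In the negative binomial test in edgeR, with its spread taken from the same libraries, 0 of the genes in these 4 groups were called.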

How the data were processed

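Each of the 2 libraries held small RNA of less than 30 nucleotides, per the labels. The authors deposited 1 table of raw counts for each library, with reads mapped to mm10 and counted per miRNA gene of GENCODE M4, per the text files deposited beside them. No aligner or counter is named (not given in the sources used here). Rows for multimapping reads (56.3% and 57.5% of the reads of replicates 1 and 2), unmapped reads (10.6% and 9.17%), reads outside miRNA genes (2.99% and 2.57%) and ambiguous reads (0) were left out of totals. Column 3, the counts on the gene strand, was used, as CPM of its sum. Of 1973 identifiers, 1894 matched GENCODE M21, and the others had 0 counts. All 3 members matched the RefSeq sequence table. Genes that reached 10 counts in each library were compared by exact binomial tests (two-sided) on TMM library sizes (edgeR 4.0.16, R 4.3.3, scipy 1.17.1), with Benjamini-Hochberg adjustment at 0.05. The test was also run on simulated counts with counting error only and total library sizes. Those counts meet the assumption of the test, so they cannot show how it behaves under spread between pups. The quasi-likelihood test has no residual degrees of freedom here. Folds came from RNAfold 2.7.2. Named genes are the members, the 2 genes nearest to each in level, genes of the 4 lists and cell type markers. Host and neighbouring genes, and genes with the offset hexamer, are named as well. Alternatives were unstranded counts, other count minimums, DESeq2 1.42.0 size factors, total counts, a total without the most abundant gene, a negative binomial test and each library alone. Members and lists were chosen with earlier results of these data known. Nothing says how independent the libraries are beyond the pup numbers. The exact binomial p-values set the difference between 2 libraries against counting error only and do not measure spread between pups.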

Additional observations from a re-analysis of the deposited data

How the results depend on the processing

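The order and ratios of the 3 members were the same with unstranded counts, since no member had counts on the opposite strand, but CPM depends on the denominator. With unstranded totals, Mir148a had 1389 CPM, Mir148b 456 and Mir152 181, and the family took 0.203% of the counts. Without the most abundant gene in the total, Mir148a had 1743 CPM, Mir148b 571 and the family 0.254%. Leaving out 1 replicate gave the range 1601 to 1648 CPM for Mir148a, 519 to 547 for Mir148b and 194 to 230 for Mir152. No member was called under any of the 6 alternatives to the test, with adjusted p from 0.406 to 1.0 for Mir148a, 0.374 to 1.0 for Mir148b and 0.0540 to 1.0 for Mir152. The log2 ratio of Mir148a changed sign to 0.0050 with DESeq2 size factors, 0.041 with total assigned counts and 0.0077 with at least 100 counts in both libraries, and that of Mir148b to -0.0081 with at least 1 count in either library. The ratio of Mir152 ranged from 0.16 to 0.24. Over all detected genes, 128 were called by the binomial test, 59 higher and 69 lower in replicate 2, against 72 and 52 with total assigned counts. The negative binomial test in edgeR called 1, with 15 at an unadjusted p under 0.05. No paired analysis was possible because there is a single group with 1 library per replicate number. Depth limits Mir152 most, as its 531 and 296 counts leave an interval of -0.03 to 0.38.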
